A study of Mus musculus with 30 samples.

Results

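The genes described here encode the histone acetyltransferases CBP and p300, the CREB family factors that recruit them, and proteins that bind either partner. They are Crebbp and Ep300 (the acetyltransferases), Creb1, Crem and Atf1 (the factors), Crtc1, Crtc2 and Crtc3 (CREB-regulated transcription coactivators), and Cited2 and Cited4 (CBP/p300-interacting transactivators). Each was taken from the FPKM table by its symbol, 10 of 24883 rows, and all 10 averaged at least 1 FPKM (fragments scaled to transcript length and to the mapped total of the library), the minimum for testing. Dorsal hippocampus was collected from 30 adult male C57BL/6J mice, 1 library per mouse and 6 mice per condition. VEH-HC mice received the transfection reagent without DNA and stayed in the home cage with handling only. VEH-T10 and VEH-T3 mice received the same vehicle and were trained in the object location memory task for 10 min, which is the threshold protocol, or for 3 min, which is subthreshold. Y397F-T10 mice received a plasmid for CREST carrying the change that the sample labels call phospho-null, and were trained for 10 min. Y397D-T3 mice received the CREST plasmid labelled phospho-mimetic and were trained for 3 min. Infusion preceded training by 3 days and tissue was taken 1 h after training. The plasmids encode HA-tagged mouse CREST (Ss18l1) under a short CaMK2 promoter that favours excitatory neurons, transfection is focal, all mice keep their own wild-type Ss18l1, and no condition combined a plasmid with the home cage.

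CREB binds cAMP response elements in gene promoters, and its phosphorylation after synaptic activity creates a docking surface for CBP and p300, which acetylate histones and so favour transcription. CRTC proteins enter the nucleus once calcineurin removes phosphates placed on them by salt-inducible kinases, and they strengthen CREB at its targets without needing CREB phosphorylation. This pathway is required for many forms of long-term memory in the hippocampus, and CREST, a subunit of the neuronal BAF chromatin remodelling complex, binds CBP.

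The libraries were of similar depth, between 0.811 and 1.24 of the median library judged from single-fragment steps in rows with very low values, and absolute depth is unknown. The 5 neuronal markers summed to 2413 to 3047 FPKM and the 5 CA1 pyramidal markers to 129 to 194 FPKM across the libraries, and none of the markers checked averaged 0 in a condition. The neuronal sums were 2742 to 3046 FPKM in Y397D-T3 (median 2820) and 2435 to 2804 FPKM in VEH-HC (median 2617), with the highest median, 2854 FPKM, in VEH-T10. By limma, 2 of the 5 neuronal markers were called higher in Y397D-T3, the condition with the most calls against VEH-HC. Marker sums for other tissue moved with the conditions. The 5 deep cortical layer markers summed to 36.2 to 46.3 FPKM in VEH-HC and to 24.2 to 34.5 FPKM in VEH-T10, without overlap, and the 6 choroid plexus markers had a median sum of 3146 FPKM in VEH-HC against 1954 FPKM in VEH-T3, 124 FPKM in Y397D-T3, 102 FPKM in VEH-T10 and 55.8 FPKM in Y397F-T10. The choroid plexus sums ran from 918 to 5590 FPKM in VEH-HC, 29.6 to 12789 FPKM in VEH-T3, 13.5 to 2839 FPKM in Y397D-T3, 10.3 to 4464 FPKM in VEH-T10 and 28.9 to 10396 FPKM in Y397F-T10, so the groups overlapped. The deep cortical sums were 24.2 to 50.9 FPKM in VEH-T3, 27.9 to 40.3 FPKM in Y397D-T3 and 26.5 to 43.7 FPKM in Y397F-T10, and 1 of the 4 tested markers was called lower in VEH-T10 and in Y397D-T3. The 5 thalamic markers summed to a median of 29.7 FPKM in VEH-HC (25.5 to 35.7 FPKM) against a lower median in VEH-T3 (18.6 to 48.2 FPKM), and 25.8 FPKM in Y397D-T3 (18.9 to 29.7 FPKM), 25.2 FPKM in VEH-T10 (14.1 to 31.0 FPKM) and 25.3 FPKM in Y397F-T10 (11.7 to 28.1 FPKM), with 1 marker called lower in VEH-T10, 1 in Y397F-T10 and 2 in Y397D-T3. The median sum of the 5 interneuron markers was 204 FPKM in VEH-HC and 167 to 185 FPKM in the trained conditions, and that of the 4 ependymal markers was 48.1 FPKM against 33.5 to 39.7 FPKM. The home-cage mice are the reference of 4 comparisons, so these values stand beside each of them, and their part in the results was not tested. Within the hippocampus, the 5 dentate granule markers had their lowest median sum, 92.7 FPKM, in VEH-HC (89.6 to 117 FPKM). The trained medians were 125 FPKM (Y397D-T3), 123 FPKM (VEH-T3), 119 FPKM (Y397F-T10) and 103.5 FPKM (VEH-T10). All trained ranges overlapped that of VEH-HC, and no dentate marker was called by limma. The median log2 difference of these markers from VEH-HC was 0.01 for VEH-T10 and 0.18 to 0.22 for the other trained conditions. In bulk tissue, fewer cells of a type and less RNA per cell cannot be told apart.

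FPKM divides by transcript length, so levels can be set against each other, and the members spanned a wide range. Crtc1, the CRTC most associated with neurons, was the most abundant at 52.1 ± 4.22 FPKM (mean ± SD over the 30 libraries), above Cited2 at 17.2 ± 1.51 FPKM in 30 of 30 libraries. Ep300 (8.06 ± 0.749 FPKM) and Crtc2 (7.86 ± 0.714 FPKM) could not be ordered, with Ep300 the higher in 19 of 30 libraries. Crebbp averaged 6.75 ± 0.964 FPKM and lay below Crtc2 in 25 of 30 libraries. Creb1 (5.84 ± 0.553 FPKM), Crem (5.64 ± 0.798 FPKM), Atf1 (5.27 ± 0.739 FPKM) and Crtc3 (4.91 ± 0.479 FPKM) followed, and each of these was above the next in only 20 of 30 libraries, so their order is within the spread. Cited4 was the lowest at 1.24 ± 0.60 FPKM, and 2.75% of the tested rows averaged less.

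**Figure D1:**
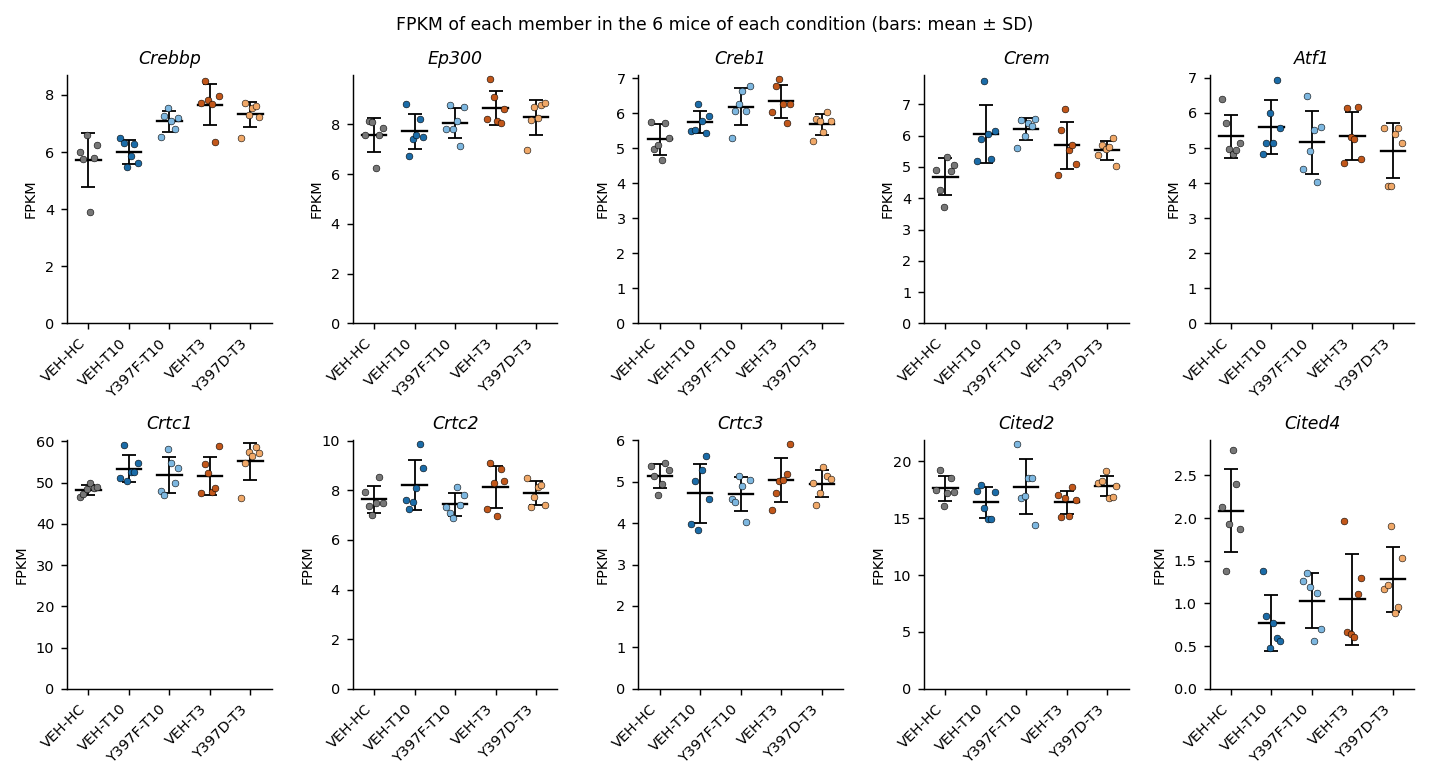
FPKM (vertical axes, starting at 0) of the 10 genes in each of the 6 mice of the 5 conditions (horizontal axes), with points for mice and bars for the mean ± SD. Cited4 lies at 1.38 to 2.80 FPKM in VEH-HC and at 0.484 to 1.38 FPKM in VEH-T10, Crebbp rises from a mean of 5.71 FPKM in VEH-HC to 7.67 FPKM in VEH-T3, and the Atf1, Crtc2 and Crtc3 panels overlap throughout.

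Differences are given as differences of mean log2(FPKM + 1) with their standard error, from 1 limma model of the 30 libraries, and a difference is called where the Benjamini-Hochberg adjusted p over 13184 rows is under 0.05. Adding 1 draws differences of low genes toward 0, which matters for Cited4. Over the 5 conditions at once, Crebbp (adjusted p = 0.0109) and Cited4 (adjusted p = 0.0184) passed limma's moderated F test, a test that 2.64% of all rows passed. Crem (adjusted p = 0.0507) and Creb1 (adjusted p = 0.0552) lay just past the threshold, and the other 6 members had adjusted p between 0.264 and 0.774.

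Against VEH-HC, 1 member was called in VEH-T10 (0.819% of all rows were called), 3 in VEH-T3 (5.17% of all rows), 2 in Y397F-T10 (1.13% of all rows) and 1 in Y397D-T3 (7.07% of all rows). The called members were Cited4 in VEH-T10, which fell, Crebbp and Creb1, which rose, with Cited4, which fell, in VEH-T3, Crem, which rose, with Cited4, which fell, in Y397F-T10, and Crebbp, which rose, in Y397D-T3. These 4 comparisons share the VEH-HC mice. Of all rows called, 42 were higher and 66 lower in VEH-T10, 294 and 387 in VEH-T3, 62 and 87 in Y397F-T10, and 515 and 417 in Y397D-T3, and with each library's median subtracted these were 33 and 13, 239 and 102, 30 and 12, and 692 and 248. The median difference of the 10 members was 0.08 in VEH-T3, 0.07 in Y397D-T3, 0.07 in VEH-T10 and 0.04 in Y397F-T10, where the median of all tested rows was -0.04, -0.03, -0.03 and -0.04. The values of the 6 mice did not overlap those of VEH-HC for 2 members in VEH-T10 (Crtc1 above and Cited4 below, with 2.43% of all rows not overlapping), 0 in VEH-T3 (1.99% of all rows), 2 in Y397F-T10 (Crem above and Cited4 below, with 1.80% of all rows) and 0 in Y397D-T3 (5.52% of all rows).

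**Figure D2:**
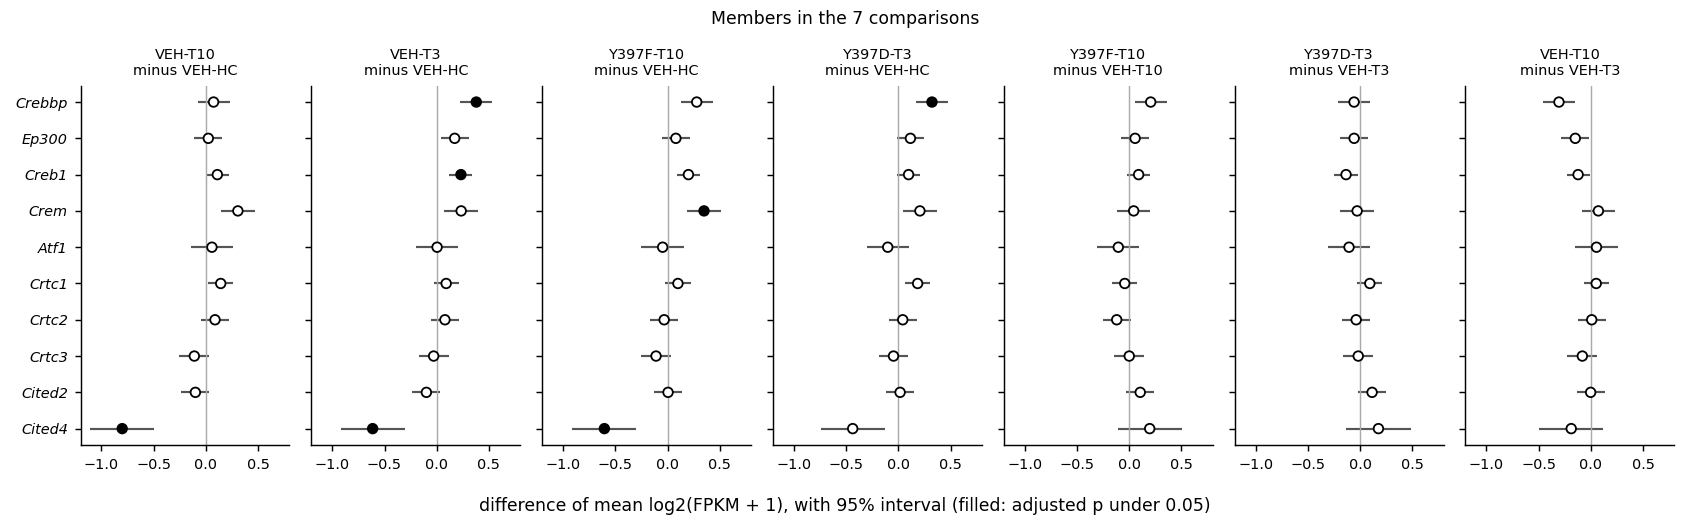
Difference of mean log2(FPKM + 1) (horizontal axes) for the 10 genes (rows) in the 7 comparisons (panels), with points for the limma estimate, lines for its 95% interval and filled points for an adjusted p under 0.05. The 7 filled points are all in the 4 comparisons with VEH-HC, and the largest is Cited4 in VEH-T10 at -0.80.

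Crebbp, which encodes CBP, lies on the minus strand of chromosome 16 (GRCm38, chr16:4081328-4213997), and its longest annotated transcript has 10820 bases, longer than the transcripts of 98.1% of the tested genes. The 6 VEH-HC mice had, as lowest, median and highest Crebbp level, 3.89, 5.88 and 6.59 FPKM, and the VEH-T10 mice had 5.47, 6.06 and 6.51 FPKM. Those groups overlapped almost completely, with 3 of 6 VEH-T10 mice above the VEH-HC median. The VEH-T3 mice had 6.36, 7.76 and 8.49 FPKM, the Y397F-T10 mice 6.53, 7.15 and 7.55 FPKM, and the Y397D-T3 mice 6.48, 7.43 and 7.72 FPKM. In each of these 3 conditions, 6 of 6 mice lay above the VEH-HC median, although the lowest mouse of each lay below the highest VEH-HC mouse. Crebbp was higher than in VEH-HC by 0.38 ± 0.07 in VEH-T3 (SE, limma adjusted p = 0.0091) and by 0.32 ± 0.07 in Y397D-T3 (adjusted p = 0.0103), and the difference was 0.28 ± 0.07 in Y397F-T10 (adjusted p = 0.0596) and 0.07 ± 0.07 in VEH-T10 (adjusted p = 0.702). VEH-HC replicate 4 held the lowest level by a wide margin. Without it, Crebbp remained called in VEH-T3 (0.29, adjusted p = 0.0139) and in Y397D-T3 (0.23, adjusted p = 0.0164), and the VEH-T10 difference was -0.02. Over all 13184 rows, leaving out that mouse changed the calls from 681 to 155 in VEH-T3 and from 149 to 18 in Y397F-T10. They went from 932 to 665 in Y397D-T3 and from 108 to 95 in VEH-T10. Without VEH-HC replicate 3, Y397F-T10 replicate 1 or VEH-T3 replicate 5, the Y397F-T10 difference passed the threshold (adjusted p = 0.0481, 0.0377 and 0.0431). With the trend of each library on transcript length and GC content taken out, Crebbp was called in VEH-T3 (0.29, adjusted p = 0.00346), Y397F-T10 (0.21, adjusted p = 0.0263) and Y397D-T3 (0.25, adjusted p = 0.00202), and a fit without the other 3 conditions did not call it in VEH-T3 (adjusted p = 0.09). The latter fit called 0 of all 13184 rows in VEH-T3. By their medians, the dentate granule marker sums given above also lay nearest to VEH-HC in VEH-T10. The part of these sums in the Crebbp result was not tested.

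The stretch of Crebbp mRNA that the study targets with its Cbp primers for quantitative PCR is shown because it places that separate assay within the gene, and its values are not used here. It spans 61 bases of mRNA, chr16:4117626-4119050 on GRCm38 with the intron between, and its first 18 bases are in exon 13 and the rest in exon 14 of the 31-exon longest transcript (GENCODE vM21). It is contained in 3 of the 8 annotated transcripts. FPKM here is per gene and does not separate them. Capitals mark the forward primer and the complement of the reverse primer.
Cbp amplicon: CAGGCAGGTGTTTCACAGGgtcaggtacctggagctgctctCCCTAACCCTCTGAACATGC

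The 300 bases around the start that RefSeq gives Crebbp (chr16:4213355-4213654, minus strand, GRCm38.p6, most of them upstream of that start) are shown as the promoter of the called acetyltransferase gene. RefSeq and GENCODE place this start differently, and the window lies wholly within the GENCODE gene given above, downstream of its start at 4213997. These bases of Crebbp were searched on both strands, as were the windows of other members. The patterns were the cAMP response element TGACGTCA, its core TGACG (which the full element contains), the GC box GGGCGG and the E-box CACGTG. Capitals mark GC boxes, in either orientation.
Crebbp promoter: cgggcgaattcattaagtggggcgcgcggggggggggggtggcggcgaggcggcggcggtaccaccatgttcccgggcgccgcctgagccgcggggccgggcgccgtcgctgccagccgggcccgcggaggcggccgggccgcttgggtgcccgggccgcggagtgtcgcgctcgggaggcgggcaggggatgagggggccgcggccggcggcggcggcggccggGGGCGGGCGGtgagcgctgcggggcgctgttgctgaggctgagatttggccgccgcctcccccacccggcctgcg
The Crebbp window had 82.0% GC and 2 overlapping GC boxes. The GC box was in 7 of the 8 member windows searched, the exception being Crtc1, and in 35.7% of all 32851 windows. The full response element was in 0 of the 8 and in 1.79% of all windows, the core only in that of Atf1 and in 20.8% of all windows, and the E-box in those of Cited2 and Atf1 and in 7.15% of all windows. Crem and Crtc2 had no entry. A match of letters is a description of these windows only.

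Ep300, encoding p300, the closest relative of CBP, lies at chr15:81585351-81652077 on the plus strand. Its level was 7.58 ± 0.687 FPKM in VEH-HC (mean ± SD, n = 6), 8.66 ± 0.696 FPKM in VEH-T3, 8.29 ± 0.704 FPKM in Y397D-T3, 7.72 ± 0.711 FPKM in VEH-T10 and 8.06 ± 0.616 FPKM in Y397F-T10. No comparison called it. Its difference was 0.17 ± 0.06 in VEH-T3 (limma adjusted p = 0.113), 0.12 ± 0.06 in Y397D-T3 (adjusted p = 0.269), 0.08 ± 0.06 in Y397F-T10 (adjusted p = 0.571) and 0.02 ± 0.06 in VEH-T10 (adjusted p = 0.911). VEH-HC replicate 4 was again the lowest home-cage mouse, at 6.26 FPKM where the other 5 lay between 7.56 and 8.13 FPKM.

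The plain ratio of Crebbp to Ep300 FPKM within a library does not depend on how that library was scaled. The ratio tests here add 1 to each FPKM and so keep some dependence on scaling, more for a low gene such as Cited4. The mean FPKM ratio of Crebbp to Ep300 was 0.749 ± 0.0733 in VEH-HC (SD, n = 6), 0.886 ± 0.0603 in VEH-T3, 0.885 ± 0.0522 in Y397D-T3, 0.782 ± 0.0763 in VEH-T10 and 0.881 ± 0.0629 in Y397F-T10. On the log2(FPKM + 1) scale it was higher than in VEH-HC by 0.21 in VEH-T3, by 0.21 in Y397D-T3 and by 0.20 in Y397F-T10, each with an adjusted p = 0.0303 by the exact permutation test, 2-sided, over the 21 ratio tests. The 6 Y397F-T10 ratios (0.828 to 0.964) lay above the 6 VEH-HC ratios (0.620 to 0.815), so that its raw exact p of 0.00216 is the smallest that 6 against 6 mice allow. In VEH-T10 the ratio differed from VEH-HC by 0.05 (exact permutation adjusted p = 0.604). VEH-T10 replicate 2 held the highest ratio of its group, 0.935. The ratio differed by -0.16 between VEH-T10 and VEH-T3 (exact permutation adjusted p = 0.0758) and by 0.15 between Y397F-T10 and VEH-T10 (exact permutation adjusted p = 0.0785), and without VEH-T10 replicate 2 these were -0.20 and 0.20 (exact permutation adjusted p = 0.0227 for both). Without VEH-T3 replicate 5 the first was -0.19 (exact permutation adjusted p = 0.0455). The VEH-T3 difference from VEH-HC had an adjusted p of 0.0519 to 0.053 by the exact permutation test without VEH-T3 replicate 2, 4 or 6.

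**Figure D3:**
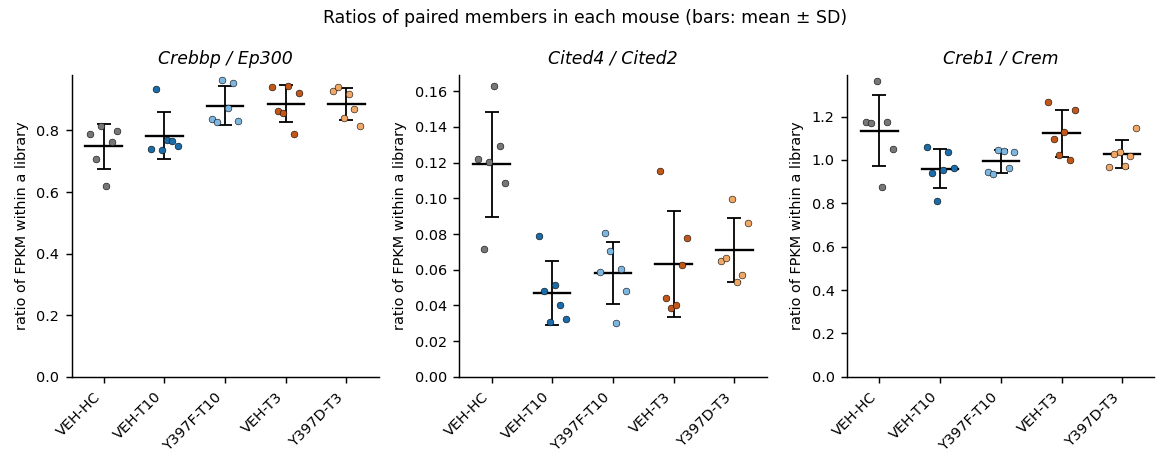
Ratio of FPKM within each library (vertical axes, starting at 0) for Crebbp to Ep300, Cited4 to Cited2 and Creb1 to Crem in the 5 conditions, with points for the 6 mice and bars for the mean ± SD. The mean Crebbp to Ep300 ratio is 0.749 and 0.782 in VEH-HC and VEH-T10 and 0.881 to 0.886 in the other conditions, and the mean Cited4 to Cited2 ratio is 0.119 in VEH-HC and 0.0469 to 0.0711 in the trained conditions.

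Creb1 encodes CREB itself (chr1:64532645-64604548, plus strand). Its level in VEH-HC ran, as lowest, median and highest mouse, at 4.66, 5.20 and 5.76 FPKM, and in VEH-T3 at 5.72, 6.26 and 6.99 FPKM. The lowest VEH-T3 mouse lay just under the highest VEH-HC mouse, and 6 of 6 VEH-T3 mice lay above the VEH-HC median. Creb1 rose in VEH-T3 by 0.23 ± 0.05 (SE, limma adjusted p = 0.0171). The Y397F-T10 mice had 5.29, 6.17 and 6.77 FPKM (difference 0.20 ± 0.05, adjusted p = 0.0619), the VEH-T10 mice 5.44, 5.65 and 6.27 FPKM (0.11 ± 0.05, adjusted p = 0.34) and the Y397D-T3 mice 5.20, 5.78 and 6.03 FPKM (0.10 ± 0.05, adjusted p = 0.261). In all of these 3 conditions, 6 of 6 mice lay above the VEH-HC median. The VEH-T3 call ended without VEH-HC replicate 4 (adjusted p = 0.0522), VEH-T3 replicate 2 (adjusted p = 0.0539) or VEH-T3 replicate 3 (adjusted p = 0.0545), in the fit of those 12 libraries alone (adjusted p = 0.09, with 0 of 13184 rows called), and with the length and GC trend removed, where it was 0.13 (adjusted p = 0.174). The longest Creb1 transcript is longer than those of 94.9% of the tested genes and has a lower GC content than all but 4.53% of them. The Y397F-T10 difference passed without VEH-HC replicate 1 (adjusted p = 0.0497), Y397F-T10 replicate 1 (adjusted p = 0.0191) or VEH-T3 replicate 5 (adjusted p = 0.0488).

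The Creb1 window (chr1:64532554-64532853, plus strand, RefSeq GRCm38.p6) is shown as the promoter of the called CREB factor, with its 2 GC boxes in capitals. It is set by the RefSeq start and includes the GENCODE start at 64532645.
Creb1 promoter: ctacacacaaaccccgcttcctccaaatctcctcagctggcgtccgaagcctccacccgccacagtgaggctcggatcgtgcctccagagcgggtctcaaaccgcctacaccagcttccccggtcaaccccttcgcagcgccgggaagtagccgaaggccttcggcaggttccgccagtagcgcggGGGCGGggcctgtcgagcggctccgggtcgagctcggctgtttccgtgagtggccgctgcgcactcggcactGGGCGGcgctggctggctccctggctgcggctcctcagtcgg

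Crem encodes activator forms and repressor forms, among them the inducible repressor ICER, and lies on chromosome 18. The annotation holds 39 Crem transcripts, so a value per gene cannot say which form changed. A gene on the opposite strand, Gm6225, overlaps Crem, and without strand its reads cannot be told apart from those of Crem. Its level in VEH-HC ran, as lowest, median and highest mouse, at 3.72, 4.88 and 5.33 FPKM, and its mean was higher in every trained condition. The Y397F-T10 mice had 5.61, 6.34 and 6.52 FPKM, all above the highest VEH-HC mouse. Crem rose there by 0.35 ± 0.08 (SE, limma adjusted p = 0.0313). The VEH-T10 mice had 5.20, 5.96 and 7.75 FPKM (0.31 ± 0.08, adjusted p = 0.0533), the VEH-T3 mice 4.76, 5.63 and 6.85 FPKM (0.23 ± 0.08, adjusted p = 0.0753), and the Y397D-T3 mice 5.03, 5.61 and 5.92 FPKM (0.21 ± 0.08, adjusted p = 0.102). These 3 groups overlapped VEH-HC, with 6, 5 and 6 of 6 mice above its median.

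The Crem differences were larger under other scalings. With the length and GC trend removed, the difference was 0.34 in VEH-T10 (limma adjusted p = 0.0141), 0.27 in VEH-T3 (adjusted p = 0.0385), 0.39 in Y397F-T10 (adjusted p = 0.0108) and 0.29 in Y397D-T3 (adjusted p = 0.00987), so that Crem was called in all 4. With each library's median subtracted, it was called in VEH-T10 (adjusted p = 0.0397), Y397F-T10 (adjusted p = 0.0297) and Y397D-T3 (adjusted p = 0.0472). Single libraries mattered on both sides of the threshold. The VEH-T10 difference passed without VEH-HC replicate 4, VEH-T10 replicate 1, Y397F-T10 replicate 1, VEH-T3 replicate 1 or VEH-T3 replicate 3 (adjusted p from 0.0309 to 0.0479), and the VEH-T3 difference without VEH-T10 replicate 3 or VEH-T3 replicate 1 (adjusted p = 0.0481 and 0.0269). The Y397F-T10 call ended without VEH-HC replicate 2, 3 or 5 or Y397F-T10 replicate 3, 4, 5 or 6 (adjusted p from 0.0565 to 0.0892), where the difference stayed between 0.30 and 0.36, and in the fit of those 12 libraries alone (adjusted p = 0.0669).

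Of the 3 ratios, that of Creb1 to Crem was the one called between training durations. Its mean was 1.14 ± 0.163 in VEH-HC (SD, n = 6), 1.12 ± 0.108 in VEH-T3, 1.03 ± 0.0653 in Y397D-T3, 0.96 ± 0.0881 in VEH-T10 and 0.994 ± 0.0521 in Y397F-T10. It was lower in VEH-T10 than in VEH-T3 by a log2 difference of -0.19 (exact permutation test, adjusted p = 0.039), where Creb1 itself differed by -0.12 and Crem by 0.07. That call ended when any of VEH-T10 replicates 2, 3, 4 and 6 or VEH-T3 replicates 1, 2, 4 and 6 was left out (exact permutation adjusted p from 0.0545 to 0.0795). Against VEH-HC the ratio differed by -0.20 in VEH-T10 (exact permutation adjusted p = 0.0785), -0.15 in Y397F-T10 (exact permutation adjusted p = 0.117) and -0.11 in Y397D-T3 (exact permutation adjusted p = 0.282). Without VEH-HC replicate 4 these 3 were -0.26, -0.21 and -0.17 and passed (exact permutation adjusted p = 0.0273, 0.0273 and 0.0303). In VEH-T3 the difference was -0.0023 (exact permutation adjusted p = 0.991).

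Atf1, the third CREB family activator (chr15:100227819-100261244, plus strand), had means between 4.92 FPKM in Y397D-T3 and 5.60 FPKM in VEH-T10, and its limma adjusted p against VEH-HC was between 0.544 and 0.991. Its mice spread more than those of Creb1, with a coefficient of variation of 11.4% to 17.4% against 5.22% to 8.51%. Within conditions Atf1 rose and fell with the median log2(FPKM + 1) of the library (Pearson r = 0.72, Spearman rho = 0.73 over 30 libraries after subtracting condition means, permutation p = 1e-05 for both, adjusted p = 0.00011 and 0.00022 over 22 relations). The p of 1e-05 is the smallest that 100000 permutations can give, and without the 2 libraries farthest from the median r was 0.68. Cited4 varied the opposite way (r = -0.50, rho = -0.49, permutation adjusted p = 0.0251 and 0.0277, and r = -0.40 without those 2 libraries). Crebbp (r = -0.05), Ep300 (r = 0.13), Creb1 (r = 0.12) and Crem (r = 0.29) had permutation adjusted p between 0.255 and 0.903 for r. Crtc3 had r = 0.42 and rho = 0.45 (permutation adjusted p = 0.0638 and 0.0458, and r = 0.27 without those 2 libraries), and r = 0.45 without subtracting condition means (permutation adjusted p = 0.0459). Crtc2, Crtc1 and Cited2 had r = 0.37, -0.14 and -0.31 (permutation adjusted p = 0.129, 0.632 and 0.236).

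Among the CRTC genes, Crtc1 (chr8:70382355-70439579, minus strand) had higher means in the trained conditions, by small amounts. Its level in VEH-HC ran, as lowest, median and highest mouse, at 46.5, 48.6 and 49.9 FPKM, the tightest spread of any member in any condition (coefficient of variation 2.55%). The VEH-T10 mice had 50.3, 52.5 and 59.2 FPKM and did not overlap VEH-HC, but the difference of 0.14 ± 0.06 was not called (limma adjusted p = 0.249). The Y397D-T3 mice had 46.2, 56.9 and 58.6 FPKM, a difference of 0.18 ± 0.06 (adjusted p = 0.0542). Replicate 1 of Y397D-T3 was the lowest of all 30 libraries for Crtc1, and without it the difference was 0.23 (adjusted p = 0.0102). It also passed without Y397F-T10 replicate 1, 2 or 3 or VEH-T3 replicate 1 or 6 (adjusted p from 0.0413 to 0.0496), in the fit of those 12 libraries alone (adjusted p = 0.0342) and with each library's median subtracted (adjusted p = 0.042), in 3 of 7 other settings in all, but not with the length and GC trend removed (0.13, adjusted p = 0.193). The VEH-T3 and Y397F-T10 differences were 0.09 ± 0.06 and 0.10 ± 0.06 (adjusted p = 0.397 and 0.405). Crtc2 (chr3:90254163-90264125, plus strand) had means of 7.44 to 8.20 FPKM and Crtc3 (chr7:80586627-80688877, minus strand) means of 4.70 to 5.15 FPKM, with differences from VEH-HC between -0.03 and 0.09 for Crtc2 and between -0.11 and -0.03 for Crtc3, and none called (adjusted p between 0.436 and 0.865). An antisense gene overlaps Crtc3, and its reads cannot be told apart without strand. Annotated genes on the same strand also overlap Crtc3, Crebbp and Ep300.

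The CITED proteins bind the CH1 domain of CBP and p300, the surface that hypoxia-inducible factors also use, and here both genes were measured at very different levels. Cited4 (chr4:120666572-120667820, plus strand) has 1 annotated transcript of 1249 bases, and its GC content of 66.4% exceeds that of 99.7% of the tested genes. In VEH-HC its lowest, median and highest levels were 1.38, 2.03 and 2.80 FPKM. The VEH-T10 mice had 0.484, 0.682 and 1.38 FPKM, with the highest just under the lowest VEH-HC mouse. The ratio of the condition means was 0.371, and Cited4 fell by 0.80 ± 0.15 on the log2(FPKM + 1) scale (SE, limma adjusted p = 0.0121). The call held in 7 of 7 other settings and without each of the 30 libraries in turn (adjusted p at most 0.0374). The VEH-T3 mice had 0.611, 0.886 and 1.96 FPKM, a fall by 0.61 ± 0.15 (adjusted p = 0.021), and the Y397F-T10 mice had 0.562, 1.16 and 1.35 FPKM, a fall by 0.60 ± 0.15 (adjusted p = 0.0434). The Y397D-T3 mice had 0.888, 1.19 and 1.91 FPKM, and their difference of -0.44 ± 0.15 was not called (adjusted p = 0.0718). In all 4 trained conditions, 6 of 6 mice lay below the VEH-HC median.

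The calls in the other conditions depended on single libraries and on the processing. The call of Cited4 held in 2 of 7 other settings in Y397F-T10, where it ended with the library median subtracted (limma adjusted p = 0.101), in the fit of the 12 libraries compared alone (adjusted p = 0.072), with a pseudocount of 0.1, without the filter and with the length and GC trend removed. It held in 5 of 7 in VEH-T3, where it ended in the fit of its 12 libraries (adjusted p = 0.0893, with 0 of 13184 rows called) and with that trend removed. In VEH-T3 the Cited4 call ended without VEH-HC replicate 4 (-0.55, limma adjusted p = 0.0601), VEH-T3 replicate 2 (-0.56, adjusted p = 0.0669) or VEH-T3 replicate 3 (-0.56, adjusted p = 0.0612). In Y397F-T10 it ended when any of the 6 VEH-HC replicates, Y397F-T10 replicates 3, 4, 5 and 6, VEH-T10 replicates 2 and 4 or Y397D-T3 replicate 2 was left out (-0.68 to -0.53, adjusted p from 0.051 to 0.132). In Y397D-T3 it passed without VEH-T3 replicate 1 (adjusted p = 0.0429) or Y397D-T3 replicate 3 (-0.51, adjusted p = 0.0422). With the length and GC trend removed the 4 differences were -0.72 in VEH-T10 (adjusted p = 0.0201), -0.50 in VEH-T3 (adjusted p = 0.0912), -0.49 in Y397F-T10 (adjusted p = 0.136) and -0.45 in Y397D-T3 (adjusted p = 0.0608). At about 1 FPKM Cited4 is among the lowest rows tested, with a coefficient of variation of 23.3% to 50.5% within conditions. The thalamic, deep cortical, interneuron, choroid plexus and ependymal marker sums given above were also highest in VEH-HC by their medians, and their part in the Cited4 result was not tested.

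The Cited4 window (chr4:120666313-120666612, plus strand, RefSeq GRCm38.p6) is shown because Cited4 was the member called in most comparisons. It had 58.0% GC, the lowest of the 8 member windows, against a median of 52.7% over all windows, and 3 GC boxes, in capitals.
Cited4 promoter: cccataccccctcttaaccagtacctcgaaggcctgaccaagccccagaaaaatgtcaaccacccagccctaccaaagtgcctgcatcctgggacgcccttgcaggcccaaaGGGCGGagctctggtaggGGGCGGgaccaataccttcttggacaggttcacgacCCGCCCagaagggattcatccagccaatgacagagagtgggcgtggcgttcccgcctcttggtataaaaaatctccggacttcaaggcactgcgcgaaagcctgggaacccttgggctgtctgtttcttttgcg

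Cited2 (chr10:17723218-17725674, plus strand), its relative, had means of 16.4 FPKM in VEH-T10 and VEH-T3 and of 17.6 to 17.8 FPKM in the other conditions, and its differences from VEH-HC lay between -0.10 and 0.02 (limma adjusted p between 0.406 and 0.981). The ratio of Cited4 to Cited2 within a library was 0.119 ± 0.0296 in VEH-HC (SD, n = 6), 0.0631 ± 0.0298 in VEH-T3, 0.0711 ± 0.018 in Y397D-T3, 0.0469 ± 0.0178 in VEH-T10 and 0.0581 ± 0.0175 in Y397F-T10. On the log2(FPKM + 1) scale the ratio was lower than in VEH-HC in every trained condition, by -0.70 in VEH-T10, -0.61 in Y397F-T10 and -0.45 in Y397D-T3 (exact permutation adjusted p = 0.0303 for each) and by -0.51 in VEH-T3 (exact permutation adjusted p = 0.0455). The VEH-T3 difference no longer passed in 10 of 12 fits with a library left out, the exceptions being VEH-HC replicate 2 and VEH-T3 replicate 1 (exact permutation adjusted p up to 0.0785), and that of Y397D-T3 in 7 of 12, those without VEH-HC replicate 1, 3 or 5 or Y397D-T3 replicate 1, 2, 4 or 5 (exact permutation adjusted p up to 0.0568). The other differences of this ratio, between trained conditions, were -0.19 to 0.09 (exact permutation adjusted p between 0.361 and 0.744).

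The comparisons between trained conditions called 0 members with limma. No libraries with a wild-type CREST plasmid were analysed here, so expression of a plasmid and its point mutation cannot be told apart. The study could not detect phosphorylation of the changed tyrosine and treats both substitutions as point mutants. Phospho-null and phospho-mimetic are therefore only names from the labels. Y397F-T10 against VEH-T10, the phospho-null plasmid against vehicle after threshold training, called 0% of all rows with limma (498 rows, or 3.78%, at an unadjusted p under 0.05), and 1 member had an unadjusted p under 0.05. That member was Crebbp, higher in Y397F-T10 by 0.21 (95% interval 0.05 to 0.36, adjusted p = 0.9999), and its 6 Y397F-T10 mice all lay above the 6 VEH-T10 mice, the lowest at 6.53 FPKM and the highest at 6.51 FPKM respectively, where 0.258% of all rows did not overlap. The intervals of the other members included 0, among them Cited4 at 0.20 (-0.11 to 0.50), Crem at 0.04 (-0.12 to 0.20) and Creb1 at 0.09 (-0.02 to 0.20).

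Y397D-T3 against VEH-T3, the phospho-mimetic plasmid against vehicle after subthreshold training, called 0.00758% of all rows with limma, a single row that was not a member. Crebbp differed by -0.06 (95% interval -0.21 to 0.10) and Cited4 by 0.18 (-0.13 to 0.48). Creb1 was the 1 member with an unadjusted p under 0.05, which 7.87% of all rows had, at -0.13 (-0.24 to -0.02, limma adjusted p = 0.578), and 6 of 6 Y397D-T3 mice lay below the VEH-T3 median. No member and 0.228% of all rows did not overlap.

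VEH-T10 against VEH-T3, which compares the training durations under vehicle, called 0.0455% of all rows, and 3 members, with 8.15% of all rows, had an unadjusted p under 0.05. Crebbp was at -0.31 (95% interval -0.46 to -0.15, limma adjusted p = 0.186), with 6 of 6 VEH-T10 mice below the VEH-T3 median and an overlap of 1 VEH-T3 mouse, replicate 5. The difference passed the threshold without VEH-T3 replicate 5 (-0.35, adjusted p = 0.0475) and without VEH-HC replicate 4 (-0.31, adjusted p = 0.0152), a mouse in neither condition, without which the standard error was 0.05 in place of 0.07. Ep300 at -0.15 (-0.28 to -0.02) and Creb1 at -0.12 (-0.23 to -0.01) also had intervals below 0, without being called (adjusted p = 0.584 and 0.592). No member and 0.387% of all rows did not overlap.

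**Figure D4:**
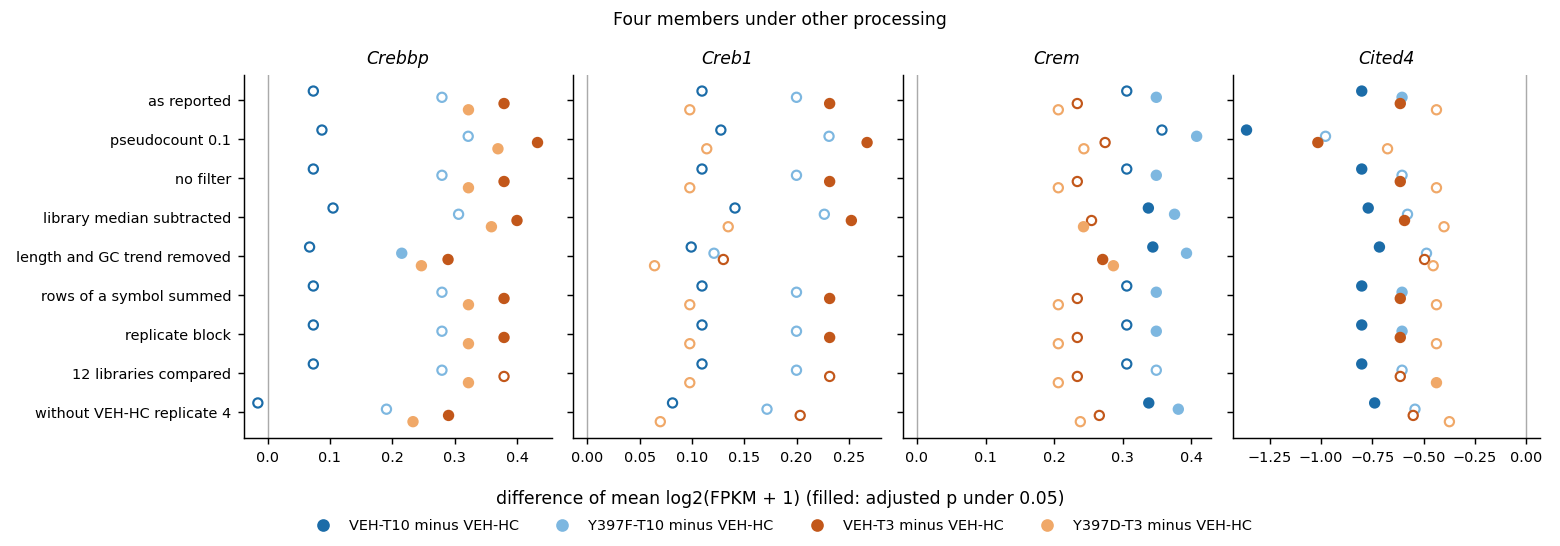
Difference of mean log2(FPKM + 1) from VEH-HC (horizontal axes) for Crebbp, Creb1, Crem and Cited4 under the reported fit and 8 other settings (rows), with colours for the trained condition and filled points for an adjusted p under 0.05. Cited4 in VEH-T10 is filled in every row, Crem in all 4 conditions with the length and GC trend removed, and Creb1 only in VEH-T3.

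Some pairs of members varied together among mice of a condition. After subtracting the library median and condition means, Crebbp and Ep300 had a Pearson r of 0.71 and a Spearman rho of 0.63 over 30 libraries (permutation adjusted p = 0.00011 and 0.00139), and r was 0.62 without the 2 libraries farthest from the Crebbp median. Cited4 and Cited2 had r = 0.51 and rho = 0.51 (permutation adjusted p = 0.0239 and 0.024, r = 0.43 without those farthest). Over the 45 pairs of members r ran from -0.52 (Atf1 and Cited2) to 0.71 with a median of 0.04, and Atf1 and Cited4 had r = -0.49. Pairs other than the first 2 named were not tested. Crebbp and Ep300 both have transcripts longer than those of over 96% of the tested genes.

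The genes whose pattern over the 30 libraries was closest to each called member, on log2(FPKM + 1) with the library median subtracted, are a description. For Crebbp they were Mib1 (r = 0.94), Ash1l (0.92) and Ncor1 (0.92), with transcripts of 9037 to 11644 bases where the median tested gene has 3442. Those closest to Creb1 were Med13 (r = 0.84), Fam208a (0.82) and Kdm7a (0.82), of 7590 to 10546 bases. Crem was most like Banp (r = 0.74), Ccar1 (0.74) and Nfkbiz (0.71), and Cited4 most like Grm4 (r = 0.84), Cxx1c (0.83) and Pigk (0.82).

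Kinases and phosphatases that act on CREB and CRTC are the upstream arm of the pathway, and 24 of 24 were tested. The numbers called higher and lower against VEH-HC were 0 and 1 in VEH-T10, 2 and 3 in VEH-T3, 0 and 2 in Y397F-T10, and 3 and 2 in Y397D-T3, where 0.819%, 5.17%, 1.13% and 7.07% of all rows were called, with list medians of -0.05, -0.01, -0.03 and -0.0025. Mapk3, which encodes the kinase ERK1, fell in all 4, for example from 107 ± 8.93 FPKM in VEH-HC to 89.4 ± 6.42 FPKM in VEH-T3 (SD, n = 6, difference -0.26 ± 0.06, limma adjusted p = 0.0155). Rps6ka4, for the CREB kinase MSK2, fell in VEH-T3, Y397F-T10 and Y397D-T3, and in VEH-T3 went from 17.4 ± 0.668 to 14.4 ± 0.665 FPKM (-0.26 ± 0.06, adjusted p = 0.0126). Camkk1, for a kinase that activates CaMKIV, rose in Y397D-T3 from 62.5 ± 2.80 to 81.1 ± 3.18 FPKM (0.37 ± 0.08, adjusted p = 0.0064). Ppp3ca, for the catalytic subunit of calcineurin, rose in VEH-T3 and Y397D-T3, in the latter from 379 ± 21.9 to 486 ± 23.6 FPKM (0.36 ± 0.09, adjusted p = 0.0158).

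Of 14 other CREB/ATF genes and regulators 13 were tested, and 1 was called in VEH-T3 (5.17% of all rows called) and 2 in Y397D-T3 (7.07% of all rows), all higher. Crebzf, a bZIP cofactor, rose in both, in Y397D-T3 from 15.4 ± 1.75 to 20.0 ± 0.676 FPKM without overlap (0.36 ± 0.06, limma adjusted p = 0.000821), and Atf7 rose in Y397D-T3 (0.17 ± 0.05, adjusted p = 0.0396). Creb3 and Atf6b were at -0.20 ± 0.07 and 0.12 ± 0.04 there (adjusted p = 0.0565 and 0.0656). Of 11 other acetyltransferases and p160 coactivators 11 were tested and 1 was called, in VEH-T3 and in Y397D-T3, against the same 5.17% and 7.07% of all rows. This was Ncoa3, a steroid receptor coactivator that binds CBP and p300, which rose in VEH-T3 from 5.55 ± 0.572 to 6.99 ± 0.602 FPKM (0.29 ± 0.07, adjusted p = 0.0189). Kat6a, Kat5 and Ncoa1 had VEH-T3 differences of 0.22 ± 0.08, -0.14 ± 0.06 and 0.12 ± 0.05 (adjusted p = 0.0929, 0.135 and 0.144). The list medians in VEH-T10, VEH-T3, Y397F-T10 and Y397D-T3 were -0.05, 0.04, -0.01 and -0.03 for the first and -0.03, 0.03, 0.02 and 0.04 for the second.

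The target arm was represented by 20 activity-regulated genes with known CREB binding, all tested. Higher and lower calls against VEH-HC were 2 and 0 in VEH-T10, 2 and 0 in VEH-T3, 1 and 1 in Y397F-T10, and 7 and 0 in Y397D-T3, beside 0.819%, 5.17%, 1.13% and 7.07% of all rows called, with list medians of 0.11, 0.09, 0.01 and 0.27 beside all-row medians of -0.03, -0.04, -0.04 and -0.03. The 7 in Y397D-T3 were Egr1, Nr4a3, Bdnf, Nr4a1, Egr2, Arc and Fosb. Egr1, an immediate early transcription factor, rose there from 36.3 ± 3.29 to 54.4 ± 10.7 FPKM (0.55 ± 0.13, limma adjusted p = 0.0087). Nr4a3, a nuclear receptor induced through CREB, rose from 14.6 ± 1.40 to 20.0 ± 3.45 FPKM (0.42 ± 0.10, adjusted p = 0.0093), Bdnf, a neurotrophin, by 0.32 ± 0.09 (adjusted p = 0.0266) and Nr4a1 by 0.43 ± 0.12 (adjusted p = 0.0307). The Y397F-T10 calls were Fosb, which rose by 0.44 ± 0.11 (adjusted p = 0.047), and Dusp1, a phosphatase of MAP kinases, which fell by 0.44 ± 0.10 (adjusted p = 0.0358). The 3 comparisons between trained conditions called 0 genes of these lists with limma. At an unadjusted p under 0.05, the 4 lists in the order given held 1, 0, 1 and 0 genes in Y397F-T10 against VEH-T10, 1, 2, 0 and 3 in Y397D-T3 against VEH-T3, and 3, 2, 3 and 0 in VEH-T10 against VEH-T3, while 3.78%, 7.87% and 8.15% of all rows, in the same order of comparisons, passed that limit.

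Of CREST (Ss18l1), its paralog Ss18 and the BAF ATPases Smarca4 and Smarca2, 4 of 4 were tested and 0 were called by limma, with 1, 0, 1 and 2 at an unadjusted p under 0.05 in VEH-T10, VEH-T3, Y397F-T10 and Y397D-T3 (14.9%, 21.6%, 16.9% and 24.9% of all rows) and list medians of -0.01, 0.05, 0.05 and 0.10. Ss18l1, whose transcript the plasmids share, was at 12.3 ± 0.745 FPKM in VEH-HC and 13.5 ± 0.471 FPKM in Y397D-T3 (0.13 ± 0.06, limma adjusted p = 0.163). Smarca2 was at -0.15 ± 0.05 in VEH-T10 (adjusted p = 0.107), Smarca4 at 0.07 ± 0.04 in Y397D-T3 (adjusted p = 0.267) and Ss18 at 0.21 ± 0.11 in VEH-T3 (adjusted p = 0.305).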

How the data were processed

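Dorsal hippocampal RNA of 30 mice, 6 per condition, was sequenced as paired reads by the study. Per the methods and the submitters' processing notes, the authors used TopHat 2.1.1 for alignment to mm10 and Cufflinks 2.2.1 for FPKM, and the FPKM values were used as the authors deposited them. The annotation release is not given in the sources used here, and the sequencing platform of each library is not stated, so no batch could be modelled. The study filtered RNA at an integrity set by its methods and used the Cyber-T analysis of variance, which was not run here.

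Of 24883 rows, the 13184 averaging 1 FPKM or more were fitted as log2(FPKM + 1), a pseudocount of 1, by limma 3.58.1 (R 4.3.3), with 1 coefficient per condition and moderation with a trend. Benjamini-Hochberg adjustment ran over the tested rows of each comparison, with a threshold of 0.05. On simulated data of these 30 libraries with known changes, the fit was checked before use. Ratios of members were tested by exact permutation, 2-sided, with adjustment over 21 tests, and relations across libraries by 100000 permutations, with adjustment over 22 relations. Depth is unknown, and relative depth came from 2642 rows averaging 0.005 to 0.1 FPKM, so that the spread among 6 mice gives the precision. Conditions and columns follow the labels, and p-values measure the spread among mice. Other steps ran in Python 3.11.15 (scipy 1.17.1, numpy 2.4.6, matplotlib 3.10.9, pandas 2.3.3). Gene positions, GC content and lengths of transcripts were taken from GENCODE vM21 (GRCm38), with a length for 96.2% of the tested rows, and promoter windows from RefSeq.

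The members, the gene lists and the marker lists were chosen with earlier results of these data known, and no list here is independent support. All 10 members are named in every comparison, at most 4 genes of each pathway list by their smallest adjusted p in any of the 7 comparisons, with the 7 called CREB targets of Y397D-T3 and the 2 of Y397F-T10 named in addition, and the 3 genes most like each called member. Alternatives were a pseudocount of 0.1, no filter (rows above 0 in at least 6 libraries), subtraction of each library's median, the 12 libraries of a comparison alone, the replicate number as a block, rows of a symbol summed, removal of a trend on length and GC, and leaving out each library. Libraries that share a replicate number were not treated as pairs in the reported fit.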

Additional observations from a re-analysis of the deposited data

Results flagged for a closer look

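Among 50 sets of 6 mice, 1 for each member and condition, 5 held a mouse set apart from the others by its gap to the nearest, relative to the set's range (Dixon's criterion, which chance meets in about 1 of 20 sets). VEH-HC replicate 4 was set apart for Crebbp, at 3.89 FPKM with the other mice at 5.76 to 6.59 FPKM, and for Ep300, at 6.26 FPKM with the others at 7.56 to 8.13 FPKM. Y397D-T3 replicate 1 was set apart for Ep300, at 6.97 FPKM with the others at 8.19 to 8.88 FPKM, and for Crtc1, at 46.2 FPKM with the others at 54.8 to 58.6 FPKM. Crem was at 7.75 FPKM in VEH-T10 replicate 3, where the others lay at 5.20 to 6.14 FPKM. Their relative depths were 1.08, 0.988 and 0.897 of the median library.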

How the results depend on the processing

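FPKM holds no read totals, Cited4 lies near the 1 FPKM minimum, VEH-HC serves 4 comparisons, and platforms are not assigned, so platform and condition cannot be told apart. The number of members called moved by over 1.5 times as follows. With the library median subtracted it was 2 in VEH-T10, 1 in Y397F-T10 and 3 in Y397D-T3, against 1, 2 and 1 as reported. That setting called 46, 42 and 940 of all 13184 rows there, against 108, 149 and 932 as reported. With the length and GC trend removed it was 2 in VEH-T10 and 2 in Y397D-T3, where 145 and 1109 of 12686 rows were called. On the 12 libraries compared it was 0 in VEH-T3, 0 in Y397F-T10 and 3 in Y397D-T3. Of all 13184 rows those fits called 0 in VEH-T3, 43 in Y397F-T10 and 1845 in Y397D-T3. With a pseudocount of 0.1 or no filter it was 1 in Y397F-T10, with 138 of 13184 and 124 of 18287 rows called. With the replicate number as a block it was 2 in Y397D-T3, with Crtc1 (0.18, limma adjusted p = 0.0343) beside Crebbp, and within 1.5 times elsewhere. That fit called 1039 of 13184 rows in Y397D-T3. Deviations of same-numbered libraries had a median r of 0.04 over 60 pairs, from -0.50 to 0.84. Libraries with other numbers had a median r of 0.0065 over 300 pairs, from -0.62 to 0.74. Whether a replicate number stands for something shared was not tested. The causes of these moves were not tested.

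Leaving out 1 library at a time, the members called ranged from 1 to 2 in VEH-T10, 1 to 4 in VEH-T3, 0 to 4 in Y397F-T10, 1 to 3 in Y397D-T3, 0 to 1 for VEH-T10 against VEH-T3 and 1 to 4 over the 5 conditions, and were 0 in both plasmid comparisons. The log2 ratio of Crebbp to Ep300 ranged from 0.17 to 0.23 in VEH-T3, 0.13 to 0.20 for Y397F-T10 against VEH-T10 and -0.20 to -0.14 for VEH-T10 against VEH-T3. The ratio of Cited4 to Cited2 ranged from -0.62 to -0.45 in VEH-T3 and -0.55 to -0.38 in Y397D-T3. The ratio of Creb1 to Crem ranged from -0.26 to -0.15 in VEH-T10, -0.21 to -0.10 in Y397F-T10, -0.17 to -0.0633 in Y397D-T3 and -0.22 to -0.15 for VEH-T10 against VEH-T3. A pseudocount of 0.1 changed no call among the 21 ratios. Of the 70 differences of members, 3 that were not called changed sign with a move of more than a standard error: Crebbp in VEH-T10 ranged from -0.0154 (without VEH-HC replicate 4) to 0.112 with a library left out, and with the length and GC trend removed Cited2 was 0.00942 in VEH-T3 and Crtc2 was 0.0552 in Y397F-T10.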
